A study of Homo sapiens with 24 samples.

Results

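H3K27ac, the acetylation of lysine 27 on histone H3, was followed along 10 genes of transforming growth factor beta (TGF-beta) signaling after knockdown of ANCO1, the ankyrin repeat protein encoded by ANKRD11. The genes were the ligands TGFB1, TGFB2 and INHBA, the receptors TGFBR1 and TGFBR2, the receptor-regulated SMADs SMAD2 and SMAD3, the inhibitors SMAD7 and SKIL, and the secreted target TGFBI. A region was counted for a gene when the deposited annotation placed the gene's symbol over the region or to its left or right within 10 kb. These 10 genes were among 21569 named in the region tables. They held 94 of 50284 regions compared between shANCO1 and shCTRL in 10A cells and 83 of 44790 in DCIS cells.

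The series had 24 ChIP-seq libraries in 8 groups of 3: H3K27ac and input DNA from shANCO1 and shCTRL cells, in 2 human lines. MCF10A (10A) is an immortalized, non-malignant mammary epithelial line, and MCFDCIS (DCIS) is a descendant of 10A that carries an oncogene and was passed through xenografts, and it stands here for ductal carcinoma in situ. Both lines lack the estrogen and progesterone receptors and HER2 amplification. All groups, controls included, were infected with a lentivirus and selected with puromycin. shANCO1 cells carried a hairpin against ANCO1 and shCTRL cells a control hairpin against GFP. The figure legend for the peak analysis names a single shANCO1 line, so effects of the hairpin's sequence and of ANCO1 loss cannot be told apart. Nothing in the labels says that the 3 libraries of a group came from separate cultures, so the tests may measure technical spread only.

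TGF-beta and activin ligands are secreted, bind a type II receptor that recruits and phosphorylates a type I receptor, and so activate SMAD2 and SMAD3, which enter the nucleus with SMAD4 and act on target genes. SMAD7 and SKIL are induced by the pathway and restrain it. In mammary epithelium TGF-beta is known for growth arrest in normal cells and for invasion and epithelial-mesenchymal transition in tumor cells. H3K27ac marks active promoters and enhancers.

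The deposited tables give each region 1 log2 fold change, that of its representative 200-bp window, and a false discovery rate (FDR) over all regions of the line. A region was called up or down at an FDR under 0.05 with the deposited direction. The tables hold no value for a single library, so neither a spread between the 3 libraries nor their depth can be given here. Both lines were shifted upward as a whole, with a median log2 fold change over all regions of 0.76 in 10A and 0.52 in DCIS, and changes are therefore also given relative to these medians.

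The sequences of 8 representative windows in DCIS show stretches to which values described later belong. The SMAD3 window 82.6 kb past the TSS is covered there only by a range. The 8 are a selection from the called regions, so motif counts among them describe these windows only. The sequences were read from the plus strand of GRCh38 (hg38). Windows in or over untranslated regions were left out. Capitals mark GGAATG, the core of the TEAD motif, on either strand, which was found in 2 of these windows, both of SMAD3. TGAGTCA, the AP-1 motif, and GTCTAGAC, a palindromic SMAD motif, were searched as well and were in none of these 8 windows.
SMAD3 first intron, 1.9 kb past the transcription start site (TSS), chr15:67067401-67067600, called up: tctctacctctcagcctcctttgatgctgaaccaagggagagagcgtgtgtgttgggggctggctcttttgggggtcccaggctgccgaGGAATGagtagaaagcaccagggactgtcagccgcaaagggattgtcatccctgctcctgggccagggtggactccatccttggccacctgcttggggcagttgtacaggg
SMAD3 intron, 62.2 kb past the TSS, chr15:67127701-67127900, called up: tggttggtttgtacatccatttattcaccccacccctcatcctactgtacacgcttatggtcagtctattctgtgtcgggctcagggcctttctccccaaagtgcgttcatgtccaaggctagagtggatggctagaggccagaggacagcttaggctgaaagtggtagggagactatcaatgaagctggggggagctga
SMAD3 intron, 82.6 kb past the TSS, chr15:67148101-67148300, called up: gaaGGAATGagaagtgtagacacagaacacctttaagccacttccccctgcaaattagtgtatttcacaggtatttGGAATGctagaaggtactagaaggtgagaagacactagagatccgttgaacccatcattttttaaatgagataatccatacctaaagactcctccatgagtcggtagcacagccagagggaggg
TGFBI intron, 4.26 kb past the TSS, chr5:136033101-136033400, called up (300 bases, since the window is placed to within 100 bases): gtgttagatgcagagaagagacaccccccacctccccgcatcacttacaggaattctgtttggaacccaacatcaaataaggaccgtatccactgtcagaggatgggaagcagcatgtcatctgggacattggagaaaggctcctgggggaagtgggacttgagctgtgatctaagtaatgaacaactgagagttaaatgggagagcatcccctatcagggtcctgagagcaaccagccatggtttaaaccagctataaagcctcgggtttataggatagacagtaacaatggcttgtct
SKIL upstream, 1.12 kb before the TSS, chr3:170356501-170356700, called up: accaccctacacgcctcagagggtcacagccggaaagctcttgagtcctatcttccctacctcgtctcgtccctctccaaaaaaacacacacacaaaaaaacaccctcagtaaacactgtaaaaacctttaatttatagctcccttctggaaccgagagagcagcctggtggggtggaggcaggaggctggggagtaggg
TGFBR2 intron, 54.4 kb past the TSS, chr3:30660901-30661100, called up: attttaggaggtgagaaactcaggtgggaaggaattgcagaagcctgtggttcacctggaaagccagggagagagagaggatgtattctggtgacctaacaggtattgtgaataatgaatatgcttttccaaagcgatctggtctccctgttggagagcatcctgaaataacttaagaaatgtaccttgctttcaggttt
TGFBR2 upstream, 7.3 kb before the TSS, chr3:30599201-30599400, called down: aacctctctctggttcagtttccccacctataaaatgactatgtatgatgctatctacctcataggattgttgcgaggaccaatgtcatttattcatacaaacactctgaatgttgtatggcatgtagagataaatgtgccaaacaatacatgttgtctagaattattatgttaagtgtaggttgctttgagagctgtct
SMAD7 intron, 21.8 kb past the TSS, chr18:48929101-48929300, called down: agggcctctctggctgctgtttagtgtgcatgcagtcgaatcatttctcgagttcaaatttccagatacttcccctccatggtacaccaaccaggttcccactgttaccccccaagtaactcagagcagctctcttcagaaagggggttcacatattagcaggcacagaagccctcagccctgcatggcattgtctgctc

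The TEAD core was in 9 of the 59 exactly placed windows of the 10 genes in DCIS and in 9 of 67 in 10A, beside 11.6% and 12.0% of all such windows of the same length. The AP-1 motif was in 0 of 59 and 2 of 67, beside 3.85% and 4.63%. The SMAD palindrome was in 0 of 59 and 0 of 67, beside 0.124% and 0.122%. These are letter matches in 1 window a region. No match says only that the letters are not in that window.

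H3K27ac at these genes differed between shANCO1 and shCTRL in 1 direction in 10A and in both directions in DCIS. In 10A, 50 of 94 regions were up (53.2%), 0 were down and 44 were not called, beside 43.6% up and 0.225% down among all regions of the line. In DCIS, 18 of 83 regions were up (21.7%) and 3 were down (3.61%), beside 23.6% and 4.86% among all regions. The share called in DCIS was thus close to the background in both directions, and the share up in 10A lay above it. The count down in 10A was also 0 at an FDR under 0.1, where 0.441% of all regions were down. Of the 1482 windows in these regions 728 were counted as up (49.1%) and 0 as down, beside 36.6% and 0.089% of the windows of all regions, so a count of 0 down was near the background. The median log2 fold change of the member regions was 0.86 in 10A and 0.50 in DCIS, near the medians of all regions. In 10A, 89 of the 94 regions lay above 0, and 54 lay above the line's median. Of the 50 regions up, 6 lay below that median. In DCIS, 50 of 83 lay above 0, and 40 above the median.

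In 10A, 9 of the 10 genes had at least 1 region up, all but SKIL, where 74.3% of all genes in the table did and 0.445% had a region down. In DCIS, SMAD3 had 9 regions up, TGFBI 5, SKIL 2, and INHBA and TGFBR2 1 each, so 5 of 10 genes had a region up, beside 32.2% of all genes. SMAD7 had 2 regions down and TGFBR2 1, so 2 of 10 genes had a region down, beside 7.16% of all genes. A gene with many regions has more chances of a call: the number of regions ran from 2 (TGFBR1, SKIL) to 25 (SMAD3) in 10A and from 1 (TGFBR1) to 21 (SMAD3) in DCIS.

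**Figure D1:**
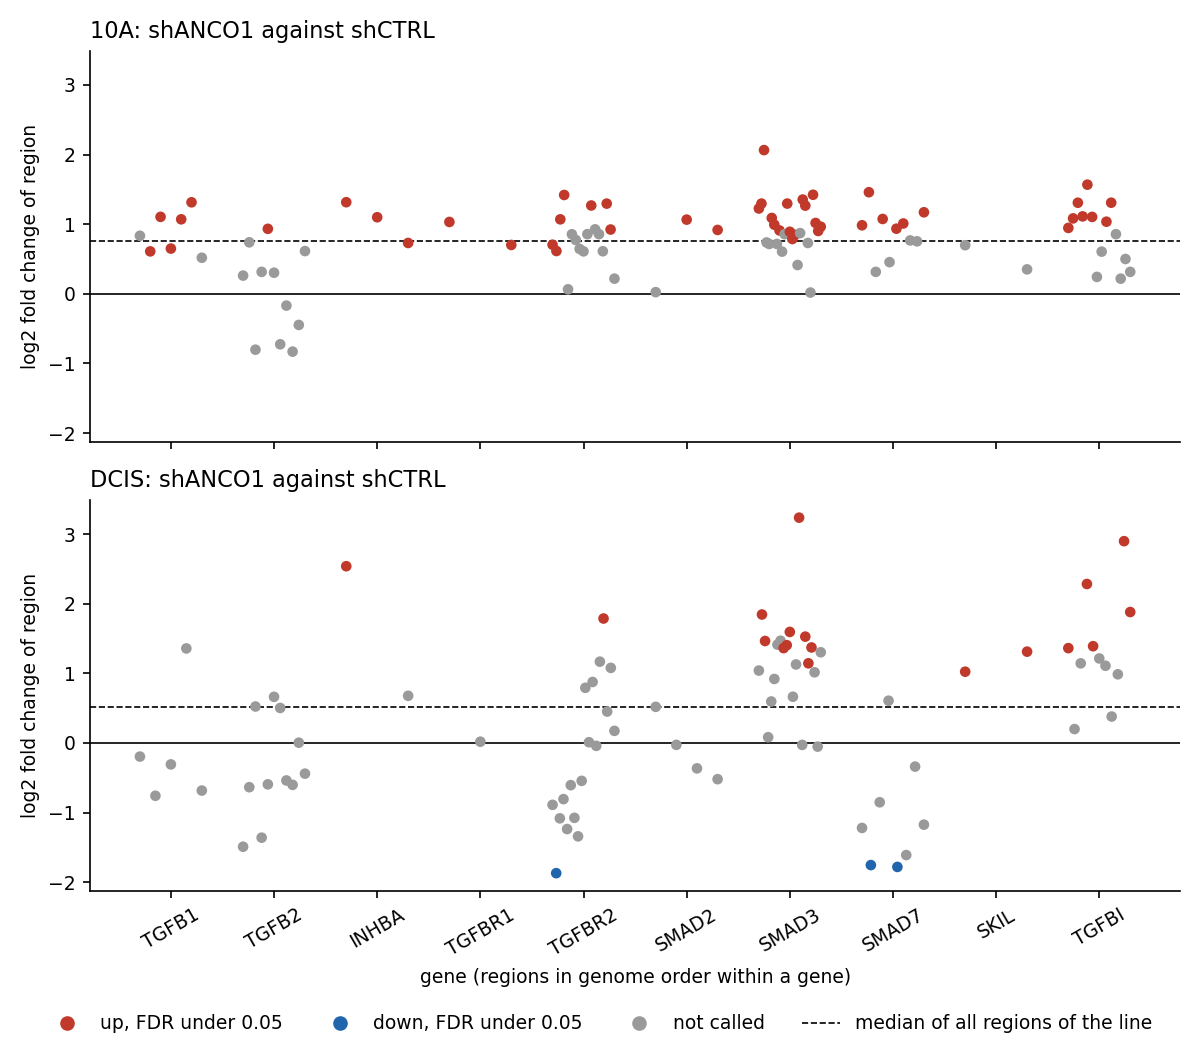
Log2 fold change of H3K27ac, shANCO1 against shCTRL, for each region of the 10 genes (94 in 10A, 83 in DCIS), in genome order within a gene; color gives the call at an FDR under 0.05 and the dashed line the median of all regions of the line. 10A points lie almost all above 0 with no region called down, while DCIS holds both the highest values (SMAD3, TGFBI, INHBA) and the regions called down (TGFBR2, SMAD7).

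For each gene the region over or nearest the TSS of its MANE Select transcript was taken as its start-site region. In 10A 8 of 10 genes were up there and 0 were down, beside 59.0% and 0.114% of all 14018 genes with such a region. In DCIS 2 of 10, INHBA and SKIL, were up and 0 were down, beside 10.9% and 2.22% of 13843 genes. Start sites were thus called less often in DCIS over all genes, too. The log2 fold changes of these regions ran from 0.35 (SKIL) to 1.31 (TGFB1) in 10A. In DCIS they ran from −1.49 (TGFB2, FDR = 0.135) to 2.54 (INHBA).

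Among the ligand genes, TGFB1 and INHBA had most of their regions up in 10A and TGFB2 had 1, and in DCIS 1 region, at INHBA, was called. TGFB1 encodes the most widely expressed TGF-beta ligand. In 10A its start-site region, chr19:41351201-41354000, was up with a log2 fold change of 1.31 (FDR = 0.00126), and 5 of its 7 regions were up. Of these 5, 4 lay 25.0 to 43.6 kb beyond the start site, downstream of the MANE transcript but inside a longer isoform of the deposited annotation. The lowest FDR belonged to 1 of these, chr19:41322801-41326600, also annotated to CCDC97, at 1.10 (FDR = 0.000408). The most distant of them, chr19:41309201-41311500, is also annotated to CCDC97 and LOC105372401, and the start-site region to BCKDHA and TMEM91. The change at these shared regions cannot be assigned to TGFB1 alone. In DCIS 0 of 5 TGFB1 regions were called. The intronic region 2.0 kb past the start site stood at 1.36 (FDR = 0.0620), and the other 4 were between −0.76 and −0.20.

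TGFB2 encodes a second ligand of the same family, and it differed from the other members in the sign of some 10A values. It was the gene that held all 5 of the member regions below 0 in that line. None of these 5 was called (lowest FDR = 0.105), and none met a region listed against input in either 10A group. Of its 11 regions 1 was up, an intronic region 31.5 kb past the start site (chr1:218376301-218377400, 0.93, FDR = 0.0164). Its start-site region had a log2 fold change of 0.74 (FDR = 0.193) in 10A. In DCIS 0 of 11 regions were called, and 7 lay below 0. The start-site region there, chr1:218344901-218349700, stood at −1.49 with 0 of 46 windows called in either direction.

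INHBA encodes the subunit of activin A, which signals through activin receptors to SMAD2 and SMAD3. All 3 of its regions were up in 10A, by 0.73 or more. In DCIS the region over its coding exon, chr7:41699301-41701800, was up with a log2 fold change of 2.54 (FDR = 5.34e-05) and 15 of 18 windows up. This was 2.02 above the median of the line. The region it overlapped in 10A, which spans the start site, had 1.10 (FDR = 0.00407). Neither DCIS group listed an INHBA region against input, whereas both 10A groups listed 2. All these regions are also annotated to INHBA-AS1, the antisense gene, and H3K27ac carries no strand.

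TGFBR1, the type I receptor that phosphorylates SMAD2 and SMAD3, had 2 regions in 10A and 1 in DCIS. Both of its 10A regions were up, at 1.03 just upstream of the start site (FDR = 0.0420) and 0.70 in the first intron (FDR = 0.0290), and the second was below the line's median. The DCIS region, of 1 window, had a log2 fold change of 0.02 (FDR = 0.998). TGFBR1 was listed against input in shANCO1 10A cells and in none of the other 3 groups.

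TGFBR2, the type II receptor that binds the ligand first, had the widest set of H3K27ac regions among the receptors and opposite signs in the lines around its start site. In 10A all 17 regions lay above 0 and 7 were up. The 10A start-site region was up at 0.61 (FDR = 0.00523), a value below that line's median. The strongest, chr3:30611501-30615000 in the first intron, had 1.42 (FDR = 0.000179, 21 of 31 windows up). In DCIS, going along the gene from upstream, the first 9 regions were all below 0, from −1.87 to −0.55, and ended 15.0 kb past the start site. Only the region at −1.87 among them was called. Of the 9 regions beyond, 8 lay above 0. This division was chosen after the values were seen.

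The DCIS region called down at TGFBR2, chr3:30597601-30600700, was 7.5 kb upstream of the start site, with a log2 fold change of −1.87 (FDR = 0.00577). It rested on 2 of its 30 windows. The region was among the most strongly marked of the gene in both groups, with a log2 level over input of 7.94 in shCTRL and 7.91 in shANCO1. These levels can belong to other windows of the region than the change does. The 10A region that this DCIS region overlapped was up, at 0.71 (FDR = 0.00314), a value below that line's median. Over the DCIS start site the change was −1.08 (FDR = 0.172). The DCIS region called up, chr3:30660801-30661200 in an intron, had 1.79 (FDR = 0.00572) with all 3 of its windows up, and the 10A region there stood at 0.61 (FDR = 0.0726).

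SMAD2, a signal carrier that SMAD3 closely resembles, was up in 10A at its start site (chr18:47928301-47932100, 0.92, FDR = 0.0105) and at an intronic region 14.9 kb beyond it (1.07, FDR = 0.0242). In DCIS 0 of 4 SMAD2 regions were called, with log2 fold changes from −0.52 to 0.52.

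SMAD3, the other receptor-regulated SMAD of the pathway, carried the largest number of changed regions in both lines. In 10A 16 of 25 regions were up, spread from the start site to 114.0 kb past it, and all 25 lay above 0. The regions up from 109.0 to 114.0 kb past it met no region listed against input in either 10A group. The start-site region had 1.23 (FDR = 0.00216). The largest change, 2.06 (FDR = 6.30e-05), was at a short intronic region of 2 windows, chr15:67089901-67090200, which met no such listed region either. It was the member region of 10A that stood more than 1 above the median of the line, and the only one to do so.

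In DCIS 9 of 21 SMAD3 regions were up and 0 were down. The intronic region chr15:67124101-67128500 had the largest change of any member region in either line, at 3.24 (FDR = 1.92e-11), or 2.71 above the line's median. Of its 43 windows, 25 were up. The same stretch was listed against input in both DCIS groups, with log2 levels of 3.98 in shCTRL and 3.79 in shANCO1. These levels can belong to other windows of the stretch than the change does. The mark was therefore listed there in shCTRL cells too. The overlapping 10A regions rose by 0.79 (FDR = 0.00502) and 0.85 (FDR = 0.00196).

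Other DCIS changes at SMAD3 were smaller. The region just past the start site, chr15:67066001-67068800, had 1.84 (FDR = 0.000215). A 4.6-kb intronic region, chr15:67104301-67108900, had 1.40 (FDR = 0.000164) with 35 of 45 windows up. The remaining 6 called regions had log2 fold changes from 1.14 to 1.59, and 3 of them consisted of 1 or 2 windows.

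**Figure D2:**
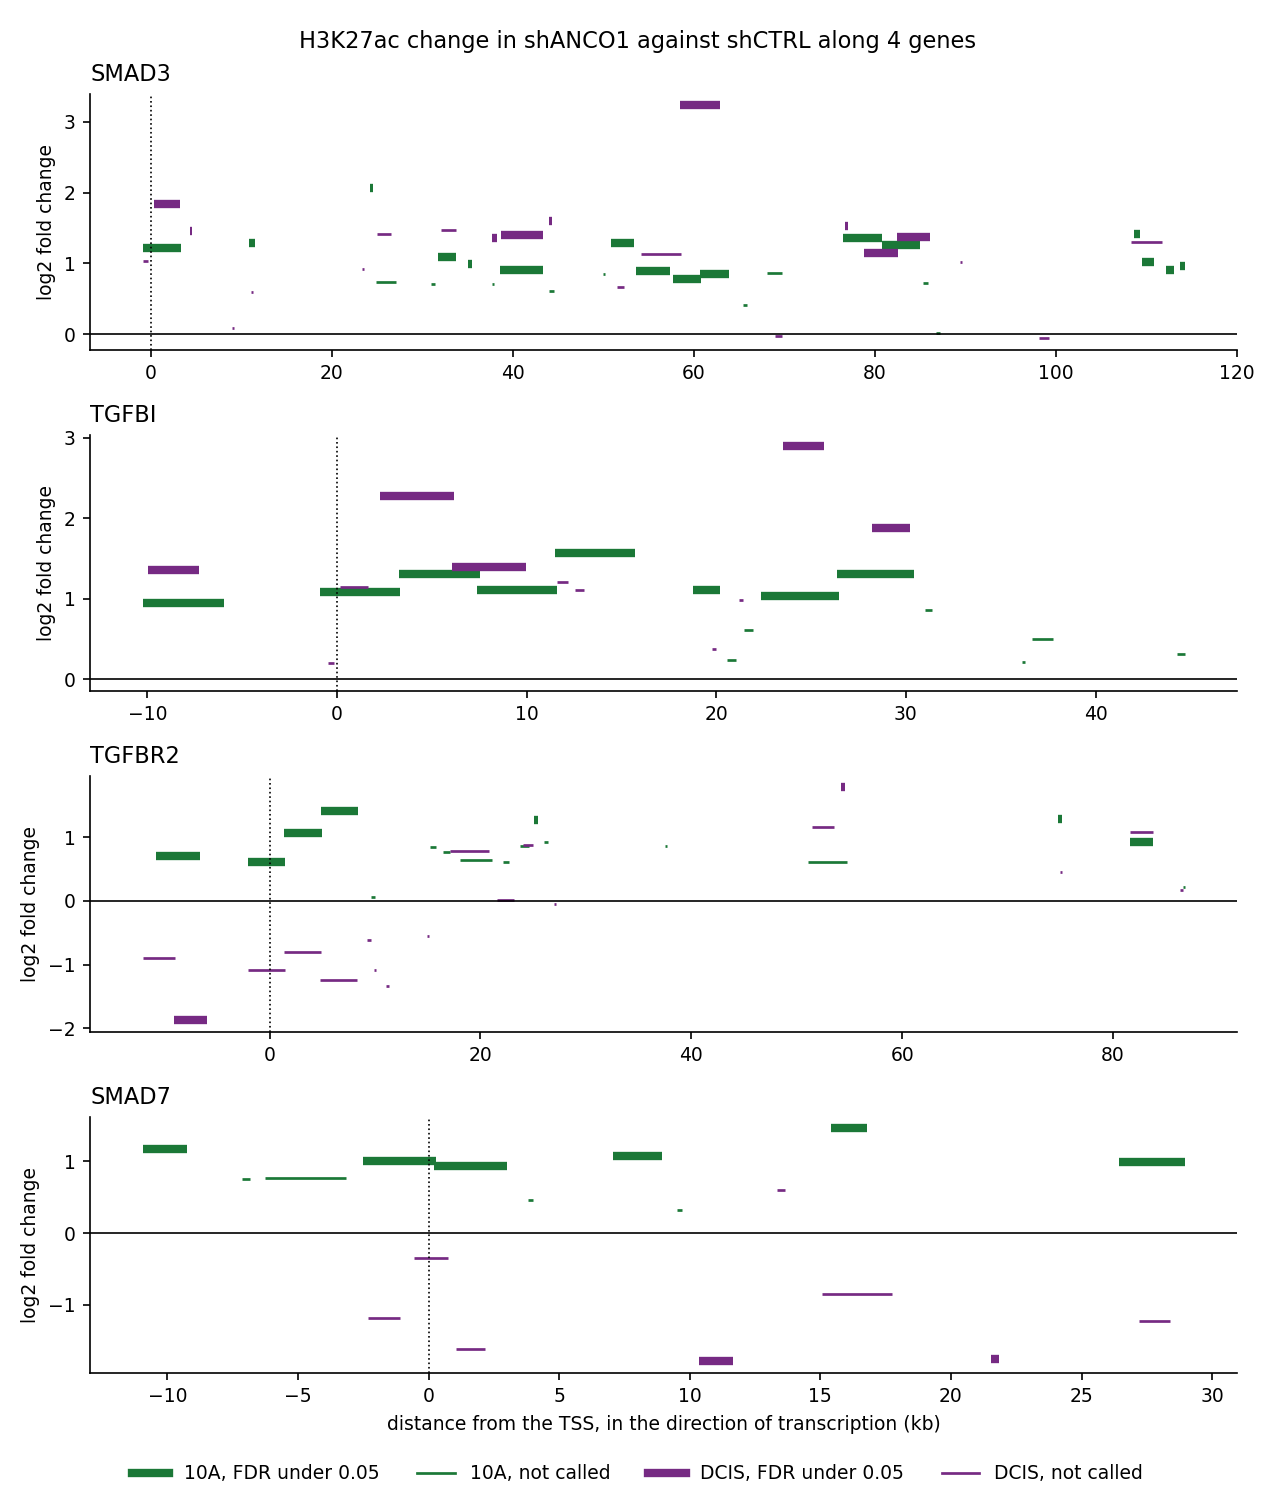
Log2 fold change of H3K27ac (y axis) for regions of SMAD3, TGFBI, TGFBR2 and SMAD7 drawn at their true width against the distance in kb from the TSS (dotted line), thick where the FDR was under 0.05. SMAD3 and TGFBI regions lie above or close to 0 in both lines, whereas DCIS regions lie below 0 around the TGFBR2 start site and along SMAD7, where 10A regions lie above 0. Most of these DCIS regions below 0 were not called.

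SMAD7, which blocks the type I receptor, had opposite signs in the lines along most of its length, though most of its DCIS regions were not called. In 10A 6 of 10 regions were up and all lay above 0. The start-site region had 1.01 (FDR = 0.0383), and the strongest, chr18:48934201-48935600 in an intron, had 1.46 (FDR = 0.000597) with all 13 windows up. In DCIS 7 of 8 regions lay below 0, and 2 were down. The one with the lower FDR, chr18:48929101-48929400, had a log2 fold change of −1.76 (FDR = 0.00863) with both of its windows down. It overlapped no 10A region and was not listed against input in a DCIS group. At the 5 places where a DCIS region met a 10A region, DCIS was below 0 and 10A above it each time. None of these 5 DCIS regions was called (lowest FDR = 0.0813). The DCIS start-site region stood at −0.34 (FDR = 0.756).

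SKIL encodes SnoN, a corepressor that binds SMADs. Its 2 regions lay above 0 in both lines. Neither was called in 10A, at 0.70 (FDR = 0.141) and 0.35 (FDR = 0.194), and both were up in DCIS. The DCIS region upstream, chr3:170356201-170356900, had 1.02 (FDR = 0.00758, 5 of 6 windows up), and the start-site region, chr3:170357701-170358800, had 1.31 (FDR = 0.0323).

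TGFBI, a secreted matrix protein named for its induction by TGF-beta, rose in both lines. In 10A 8 of 14 regions were up. The start-site region, chr5:136028101-136032300, had the lowest FDR of any member region of the line, with a log2 fold change of 1.08 (FDR = 1.80e-07) and 40 of 41 windows up. The largest 10A change was 1.57 (FDR = 0.00702), 13.6 kb past the start site.

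In DCIS 5 of 11 TGFBI regions were up, 0 were down, and all lay above 0. The largest change was over coding exons 24.6 kb past the start site, chr5:136052501-136054700, at 2.90 (FDR = 4.61e-10) with 19 of 20 windows up. The region chr5:136031201-136035100 had 2.28 (FDR = 3.05e-07) with 21 of 37 windows up. Both were listed against input in shANCO1 cells, at log2 levels of 4.26 and 5.04, and not in shCTRL cells. The region next to the start site, by contrast, was not called (1.14, FDR = 0.0935). The upstream region, chr5:136019001-136021700, was up in both lines, by 1.36 in DCIS (FDR = 0.00727) and 0.95 in 10A (FDR = 0.000174).

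Where regions of the lines overlapped, most members had the same sign. Of 63 DCIS regions over a 10A region, 42 were above 0 in both lines, 19 were below 0 in DCIS and above 0 in 10A, 1 was the other way, and 1 was below 0 in both. All 10 TGFBI pairs and 15 of 16 SMAD3 pairs were above 0 in both. The 19 pairs below 0 in DCIS and above 0 in 10A came from TGFBR2 (6), SMAD7 (5), TGFB1 (4), SMAD2 (2), and TGFB2 and SMAD3 (1 each). Among these 19, only the region upstream of TGFBR2 was called in DCIS. Of the 50 regions up in 10A, 39 met a DCIS region, 12 met one that was up, and 1, upstream of TGFBR2, met one that was down. For scale, 23.6% of all DCIS regions were up and 4.86% were down. Matching counts of overlap and sign over all regions were not made, so these counts are not read as particular to the 10 genes. The lines were fitted apart, and no test of the difference between them can be made from the tables.

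**Figure D3:**
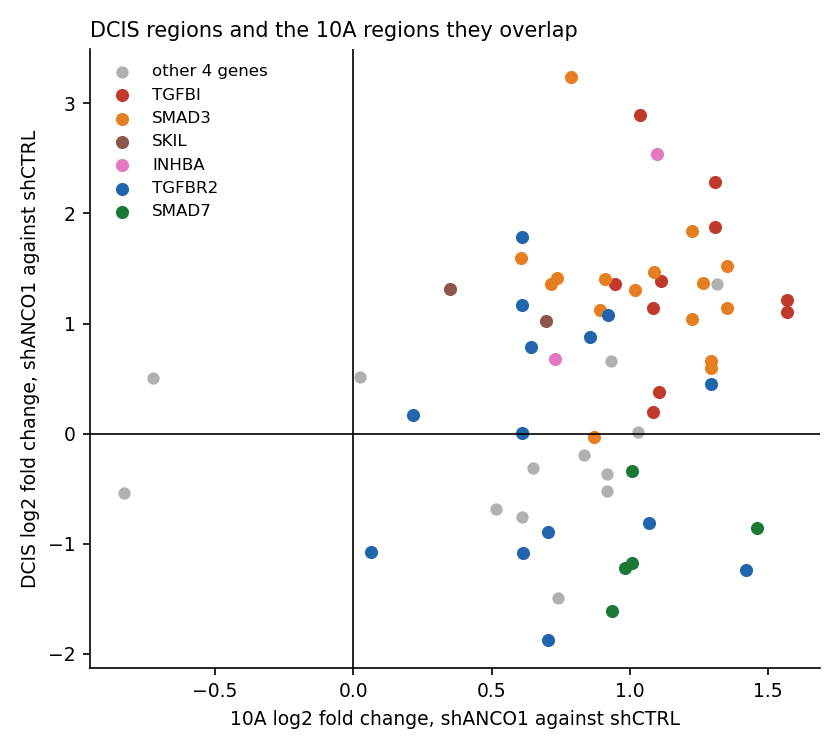
Log2 fold change, shANCO1 against shCTRL, of 63 DCIS regions (y axis) against that of the 10A region each overlaps most (x axis), colored by gene; a 10A region can appear more than once. TGFBI and most SMAD3 points fall in the upper right, while the 5 SMAD7 and 6 of the TGFBR2 points have a positive 10A and a negative DCIS value. Of these SMAD7 and TGFBR2 points, only 1, at TGFBR2, was called in DCIS.

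The regions listed against input described where each group carried the mark. These tables hold regions already enriched over input, so the share called was 100.0% in each, with 2 exceptions among 15482 regions in DCIS shCTRL, and a gene without a listed region is not shown to be unmarked. In 10A the 10 genes had 31 regions spanning 20.4 kb in shCTRL and 57 regions spanning 65.3 kb in shANCO1. The whole tables grew as well, from 15490 regions over 9.04 Mb to 28607 regions over 25.25 Mb, and the members held 0.226% and 0.259% of that width. The median level over input of all regions was nearly the same in these groups, 3.32 and 3.40 on the log2 scale. In DCIS the members had 27 regions over 26.7 kb in shCTRL and 29 over 28.1 kb in shANCO1, or 0.244% and 0.237% of the width.

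Within DCIS the width moved between genes. It went from 0.7 to 4.4 kb at TGFBI and from 5.3 to 10.2 kb at SMAD3, and from 11.7 to 8.1 kb at TGFBR2, from 3.8 to 1.8 kb at TGFB2 and from 1.8 to 1.1 kb at SMAD7. In 10A it grew at all 10 genes, most at SMAD3, from 3.7 to 19.1 kb. These widths were not tested. Of the regions up in 10A, 35 of 50 met a region listed in shANCO1, 17 met one listed in shCTRL, and 15 met neither. Of those up in DCIS the corresponding counts were 9, 7 and 9 of 18. Such counts were not made over all regions, so they are not read as particular to these genes.

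**Figure D4:**
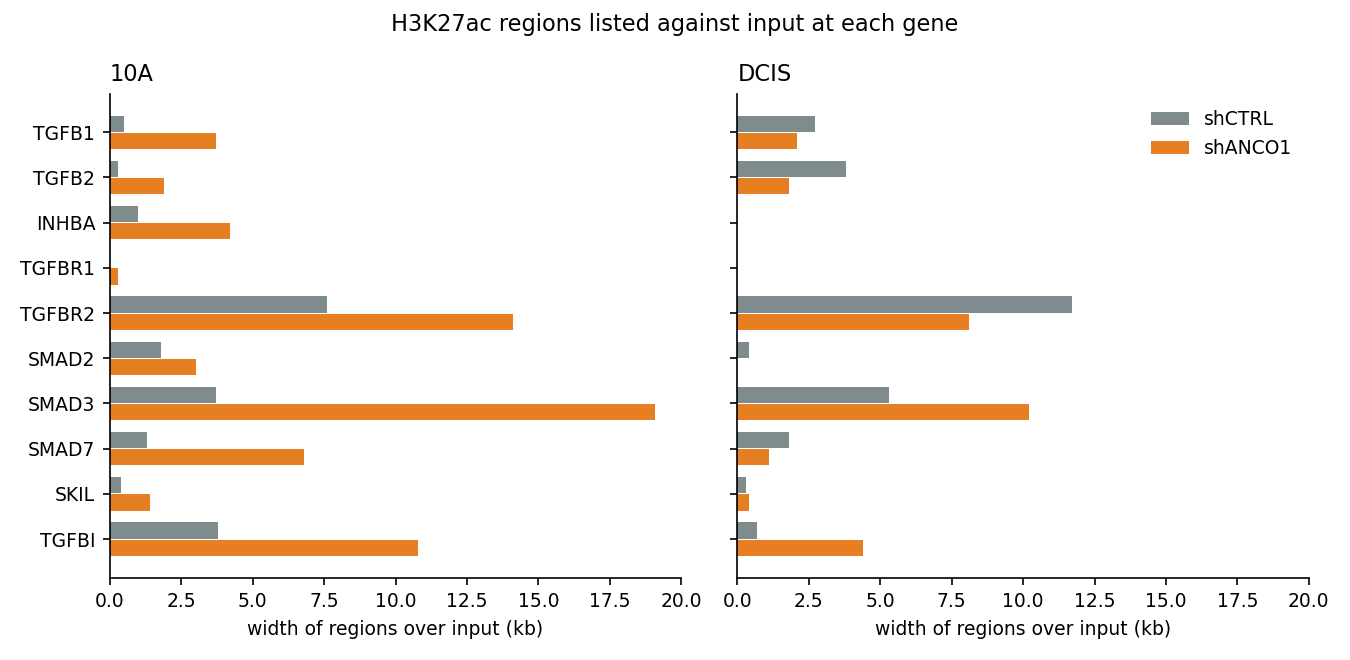
Summed width in kb of the regions listed against input at each gene, for shCTRL and shANCO1 cells of both lines; a missing bar means that no region was listed. The shANCO1 bar is longer at all 10 genes in 10A, while in DCIS it is longer at SMAD3, TGFBI and SKIL and shorter at TGFB1, TGFB2, TGFBR2, SMAD2 and SMAD7.

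Another 65 genes of the TGF-beta superfamily, in 6 lists by role, gave similar shares of regions up. In 10A 56 of them had a region, and 148 of 285 regions (51.9%) were up with 0 down. Among all 10A regions 43.6% were up and 0.225% down. In DCIS 52 had a region, 64 of 274 regions (23.4%) were up and 4 (1.46%) were down. This share down was below the 4.86% of all DCIS regions and the 3.61% of the 10 genes. The up shares in DCIS were highest in known target genes (17 of 41 regions, 41.5%), beside 23.6% for all regions. Genes of ligand storage and activation came next (21 of 65, 32.3%), and 9 of these 21 regions belonged to LTBP2 alone. The up shares were lowest in other receptors (3 of 40, 7.5%) and other SMADs (1 of 24, 4.17%).

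In DCIS the lowest FDR among the storage and activation genes belonged to LTBP2, which encodes a latent TGF-beta binding protein family member of the matrix (2.39, FDR = 2.47e-10). LTBP2 had 9 of 15 regions up. Among target genes it belonged to CDKN1A, the cell cycle inhibitor p21 (2.51, FDR = 2.48e-09). Among inhibitors it belonged to FSTL3, which binds activin (2.93, FDR = 1.28e-09). GDF15, a divergent ligand (1.40, FDR = 0.00937), the type I receptor gene ACVR1 (2.77, FDR = 5.26e-05) and SMAD5, a SMAD of the BMP branch (2.72, FDR = 6.98e-06), led the other 3 lists. The DCIS regions down were 1 each at THBS1 and SMAD6 and 2 at BMPR1B, which also had 2 up.

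In 10A, the same rule named ID1 (1.58, FDR = 5.15e-06), an inhibitor of differentiation factors, among targets, SMAD4 (1.09, FDR = 1.05e-05), the shared partner SMAD, LTBP3 (1.34, FDR = 1.33e-05), PMEPA1 (0.97, FDR = 0.000133), a feedback inhibitor, BMPR2 (1.03, FDR = 0.000203) and LEFTY1 (1.63, FDR = 0.000930). All lay within 0.87 of the line's median. PMEPA1 had all 9 of its DCIS regions up.

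**Figure D5:**
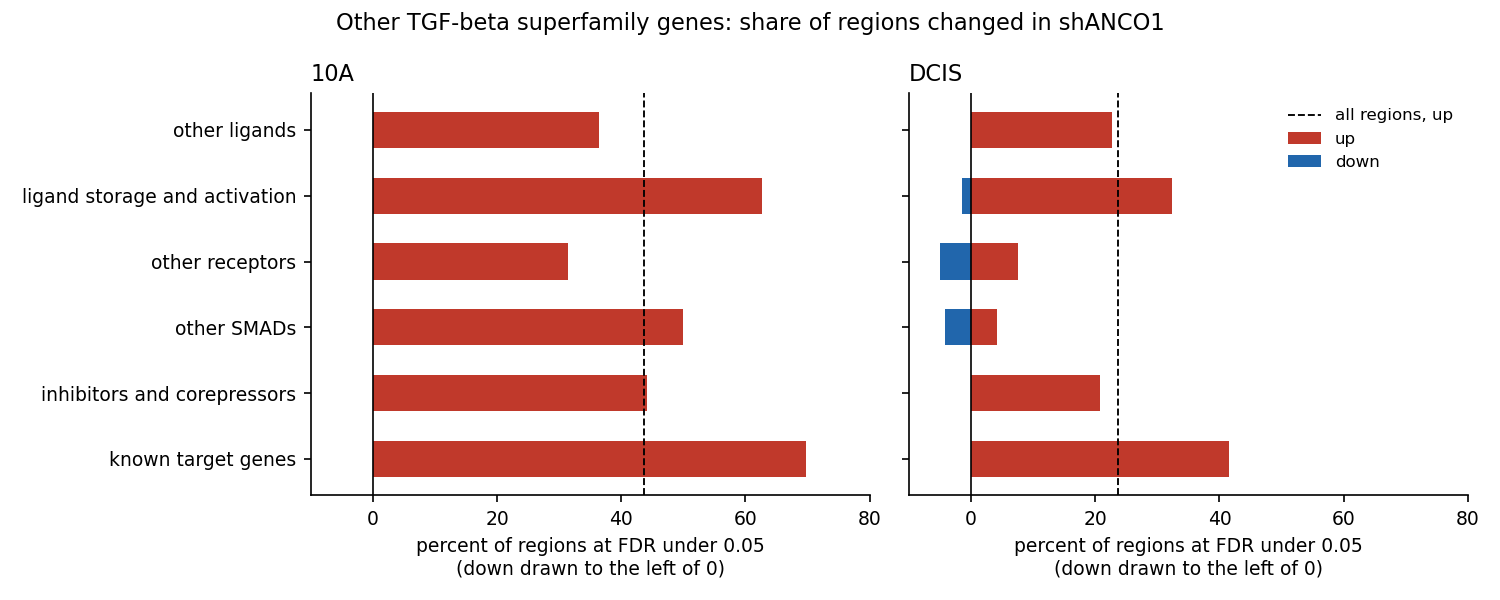
Percent of regions called up (right of 0) or down (left of 0) at an FDR under 0.05 in 6 lists of other TGF-beta superfamily genes, with the share up among all regions of the line as a dashed line (43.6% in 10A, 23.6% in DCIS). In DCIS target genes and storage genes lie above that line and other receptors and other SMADs below it. Of the 21 storage regions up in DCIS, 9 belong to LTBP2. No region of any list is down in 10A.

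As a check of the cells, promoter regions of 7 basal and pan-epithelial marker genes were listed against input for 3 in 10A shCTRL, 4 in 10A shANCO1 and 5 in each DCIS group. KRT14 was listed in none of the 4 groups. KRT17 and CDH1 were listed in both DCIS groups and in neither 10A group, and TP63 in both 10A groups and in neither DCIS group. Of 4 luminal genes, GATA3 was listed in all 4 groups and FOXA1 in the shANCO1 group of each line. The hormone receptor genes ESR1 and PGR were listed in none. Of 3 endothelial genes 1 was listed in each group, and of 4 immune and 3 muscle genes 0. At ANKRD11 itself, the region nearest the TSS was not called in 10A (0.66, FDR = 0.0764) or in DCIS (−0.07, FDR = 0.975). Its annotated promoter region of most windows was up in 10A (1.28, FDR = 8.86e-05) and in DCIS (1.73, FDR = 0.000863). That region lay over exons, 172361 bases from the TSS of the MANE transcript in 10A and 172761 in DCIS. The lowest FDR in DCIS belonged to an intronic region, also up (1.88, FDR = 2.62e-05). A hairpin acts on the transcript, so these values do not measure the knockdown, and no RNA value is in the tables.

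The 10A values were coarser than the DCIS values. In 10A, 47.9% of all regions and 45 of the 94 member regions carried a log2 fold change that, at 4 decimals, at least 20 regions of the table shared, against 0 of 44790 regions in DCIS. Regions of 1 window took 418 distinct values in 4422 regions in 10A and 3889 in 4682 regions in DCIS. The read counts behind them were not analysed here, and the part this plays in the 10A calls was not tested.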

How the data were processed

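For all 24 libraries the authors used BWA and Rsubread for alignment, with GRCh38 as the genome, SAMtools for sorting and duplicate removal, and the R package csaw for the window tests. The deposited tables give, per merged region, the number of windows tested and called, a p-value and FDR, a log2 fold change of a representative window, and the genes nearby. Each table compares whole groups, so values are the authors' own, with no value per library. Normalization, filtering, merging and the choice of input libraries are not given in the sources used here. The number of columns of individual samples left unused was 0.

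The members and gene lists were chosen with earlier results of these data known. Regions were matched to genes by symbol. Each member was described by all its regions, by that with the lowest FDR and by its promoter region, and the region nearest the TSS was added after the data were seen. From each list the gene with the lowest FDR in a line was named, and THBS1, SMAD6, BMPR1B and PMEPA1 were named after their values were seen. Places came from GENCODE 44 on the same build. Window positions followed from the window numbers in the tables (200 bp, every 100 bp), exact for 128498 of 171345 regions. The parsing was tested on simulated data. Scripts used Python 3.11.15, pandas 2.3.3, numpy 2.4.6 and matplotlib 3.10.9. The values and sequence of 1 SMAD7 region are not reported here.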

Additional observations from a re-analysis of the deposited data

How the results depend on the processing

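In 10A the 50 of 94 regions up became 28 at an FDR under 0.01, beside 25.5% of all regions. They became 31 where only log2 changes of 1 or more counted, beside 25.7%. Only 1 was left where they had to lie that far from the table median, beside 1.14%. In DCIS the 18 of 83 up became 9 at that distance, beside 16.3% of all regions. The 3 down became 5 at an FDR under 0.1, beside 6.45%. Regions listed against input fell, with at least 5 windows, from 31 to 14 in 10A shCTRL, 57 to 29 in 10A shANCO1, 27 to 12 in DCIS shCTRL and 29 to 15 in DCIS shANCO1. Of all listed regions, 31.4%, 51.3%, 40.9% and 40.8% had as many windows, in the same order. At an FDR under 1e-10 the member regions of shCTRL were 18 in 10A and 16 in DCIS, beside 44.7% and 58.1% of all listed regions. The other 29 counts stayed within 1.5 times. TGFBR2 in DCIS, 1.79 at its lowest FDR, was −0.81 (FDR = 0.467) at its promoter region and its region of most windows and −1.08 (FDR = 0.172) at the region nearest the TSS. SMAD2 in DCIS, 0.52 and not called, was −0.37 (FDR = 0.868) under the same 3 choices, and TGFB1 in DCIS, 1.36 and not called, was −0.76 (FDR = 0.621) at its region of most windows. Of 60 such values for single genes, 43 kept direction and call, 10 kept direction and lost the call, and these 7 changed sign.

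Leaving out a library could not be run, since the tables hold no values of single libraries. No paired analysis was possible because the columns carry no replicate. Depth, spread and the number of reads per region limit every value to an unknown degree, and the difference between the lines was not tested.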
